A study of Homo sapiens with 6 samples.

Results

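The genes described here are 8 growth-response transcription factor and survival genes, namely Fos, Fosb, Jun, Junb, Jund, Egr1, Ier3 and Myc. They were taken from the deposited table by gene ID, as 8 of its 34866 rows, and compared between 3 RNA sequencing libraries with GOLPH3 shRNA and 3 with control shRNA. Per the labels, the cells were MKN45, a human gastric cancer line, and both groups received an adenovirus, which carried a short hairpin RNA against Golph3 in the GOLPH3 shRNA group and a control hairpin in the other. The labels give the medium as RPMI1640 with fetal bovine serum for both groups, and do not give the time after the virus, the number of different hairpins, or whether the numbered samples were separate cultures, so a p-value here sets the difference against the spread of these 6 samples, part or all of which may be technical. No sample without virus was part of the comparison.

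The table lists mouse Ensembl IDs, although the labels give human cells, and the submitters' processing notes name the mouse build mm10. Whether human reads were counted on mouse genes, or mouse cells were sequenced, could not be settled from the table. The table has no symbols. Those used here were supplied with the list of IDs, and no mouse annotation was used here to check them. The level of the hairpin's own target and markers of the labelled cell line were for the same reason not analysed here. Levels are given as CPM, the counts brought to a common library total with edgeR's trimmed mean (TMM) factors. No gene lengths were applied, so a level is compared between libraries for 1 gene and not between genes. In bulk RNA, fewer cells that express a gene and less of its RNA per cell cannot be told apart.

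Immediate early genes are those that growth factors, stress or serum switch on within minutes through proteins already present in the cell, without new protein synthesis. Kinases of the ERK, JNK and p38 pathways act on factors such as SRF with its ELK partners and CREB, which sit on the promoters of these genes. FOS and JUN proteins pair into the AP-1 transcription factor, EGR1 is a zinc finger activator made in the same burst, and MYC carries growth signals on to genes of ribosome production and metabolism. In epithelial tumours, AP-1 and MYC are known for their links to proliferation and invasion.

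With GOLPH3 shRNA, Egr1, Fos, Junb and Jun fell, in that order of size, and Fosb, Jund and Myc did not pass the test. Egr1 was 6.50-fold lower and Fos 1.84-fold lower, while Junb was 1.33-fold and Jun 1.24-fold lower. In all, 4 of the 7 tested genes fell and 0 rose (edgeR's quasi-likelihood test, with an adjusted p below 0.05 by the Benjamini-Hochberg method over all 11400 tested IDs). Of all tested IDs, 33.9% were called in either direction, 17.8% lower and 16.1% higher. The GOLPH3 shRNA and control values did not overlap for the 4 genes that fell and overlapped for the other 3. Over all tested IDs the values were separate for 46.3%, lower with GOLPH3 shRNA for 24.2% and higher for 22.1%. Ier3 had too few counts to be tested. Egr1 passed the filter on low counts only through the control libraries, so its entry into the test rested on its higher control counts. The genes were also chosen with earlier results of these data known. For both reasons, the counts and the median over the tested genes are given as descriptions only. No excess over all tested IDs is inferred from them. The other 6 tested genes passed through libraries of both groups. The median log2 fold change of the 7 tested genes was -0.31, against 0.0019 for all tested IDs.

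**Figure D1:**
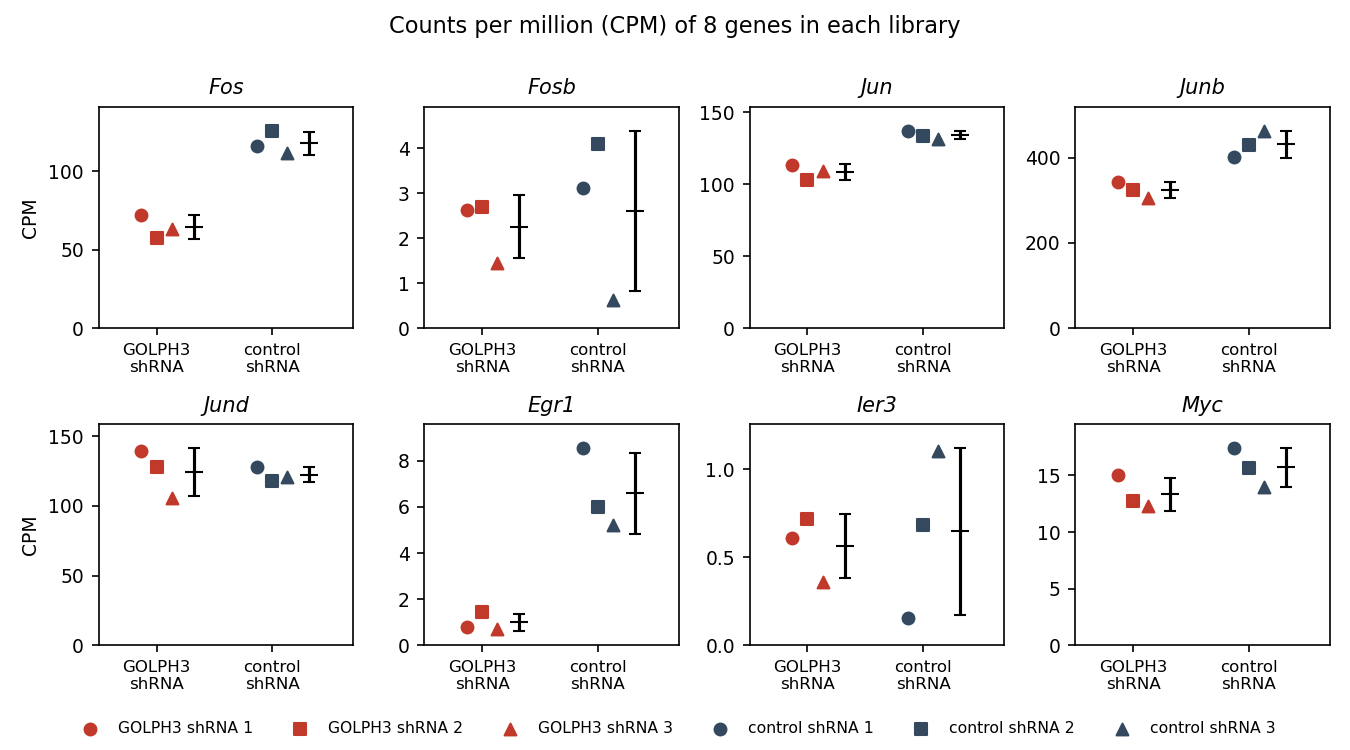
CPM of each gene (y axes, linear and starting at 0) in each GOLPH3 shRNA and each control shRNA library. Symbols mark replicate numbers, and the dash with bars is the mean ± SD of 3 libraries. The GOLPH3 shRNA values of Fos, Jun, Junb and Egr1 lie wholly below the control values, and those of the other 4 genes overlap with them.

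The GOLPH3 shRNA libraries were smaller, with 4977645 to 5676169 estimated counts against 6287037 to 7355140 in the control libraries. Values that were not whole numbers made up 41.0% to 43.9% of the counts with GOLPH3 shRNA and 39.8% to 40.9% in the controls. All 8 genes had exactly whole values in every library as deposited, before any rounding. With all libraries thinned to the smallest total, the same 4 genes were called lower. Fos, Jun, Junb and Jund belonged to the most abundant 3800 of the tested IDs, of which 25.6% fell, and 3 of these 4 genes fell. Myc belonged to the middle 3800, of which 19.6% fell, and Egr1 and Fosb to the least abundant 3800, of which 8.21% fell.

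The FOS family was represented by Fos and Fosb, whose proteins bind DNA chiefly as partners of JUN proteins. Fos (ENSMUSG00000021250) stood at 72.2, 57.1 and 63.2 CPM in GOLPH3 shRNA replicates 1, 2 and 3, against 116, 126 and 111 CPM in control shRNA replicates 1, 2 and 3. Each GOLPH3 shRNA library was below each control library, and the gap between the groups was wider than the range within either. The means were 64.2 ± 7.57 CPM with GOLPH3 shRNA and 118 ± 7.31 CPM in the controls (SD, n = 3 each), from 1025 counts in all with GOLPH3 shRNA and 2374 in the controls. The log2 fold change was -0.88 (SE 0.097, edgeR adjusted p = 5.7e-06), with a 95% interval of -1.08 to -0.67. Of all tested IDs, 5.18% had a lower log2 fold change, and of the most abundant 3800, 2.21% did. The coefficient of variation of Fos between libraries was 11.8% with GOLPH3 shRNA and 6.21% in the controls, where counting alone would give 5.41% with GOLPH3 shRNA and 3.55% in the controls.

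Fosb (ENSMUSG00000003545), which encodes a close relative of FOS, had 13, 15 and 8 counts in the GOLPH3 shRNA libraries and 20, 30 and 4 in the controls. The control values ran from the lowest to the highest of the 6 libraries, so the groups overlapped fully. Its mean was 2.26 ± 0.70 CPM with GOLPH3 shRNA and 2.61 ± 1.78 CPM in the controls (SD, n = 3 each). On the log2 scale the difference was -0.23 (SE 0.55, edgeR adjusted p = 0.78), and its 95% interval, -1.39 to 0.93, includes the change of Fos. With these counts and this spread, a change of that size could not be detected for Fosb.

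The part of the human FOS promoter directly upstream of the start is shown because the gene had the lowest p of the 7 tested genes. Promoters are from RefSeq (GRCh38.p14), were matched by symbol for 6 of the 8 genes, and are given 5′ to 3′ on the gene's strand as the 250 bases that end at the base before the annotated start. They are human sequences, in keeping with the labelled cells, and no position was carried over to the mouse build. Capitals mark matches on either strand to TGACG, the core of a cyclic AMP response element, and to TGACNTCA and TGANTCA, which are AP-1-type elements. With G at the N, TGACNTCA is also the full cyclic AMP response element. Capitals further mark the CArG box bound by SRF, the TATA box TATAAA and the EGR1-type element GCGNGGGCG.
FOS promoter, chr14:75278578-75278827 (+ strand): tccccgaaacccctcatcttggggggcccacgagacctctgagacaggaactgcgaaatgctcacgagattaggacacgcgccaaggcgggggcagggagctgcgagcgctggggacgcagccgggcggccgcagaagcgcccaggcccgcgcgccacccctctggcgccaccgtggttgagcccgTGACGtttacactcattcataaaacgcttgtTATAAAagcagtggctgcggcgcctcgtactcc
TGACG lies 64 to 60 bases upstream of the start, in the element through which CREB and its relatives are known to act on FOS, and TATAAA lies 33 to 28 bases upstream. Among 35116 promoter windows of the same length, 21.2% held TGACG and 10.7% held TATAAA. No CArG box was found in this window, and the serum response element described for FOS lies farther upstream than the window reaches. The FOSB window had the same pair of matches, with TGACG 60 to 56 and TATAAA 30 to 25 bases upstream. A match is a description of letters and does not show that a factor was bound.

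The JUN family was represented by Junb, Jun and Jund, of which Junb and Jun fell and Jund did not pass the test. Junb (ENSMUSG00000052837), whose protein is an AP-1 subunit that often restrains JUN, had 342, 324 and 305 CPM in GOLPH3 shRNA replicates 1, 2 and 3, against 401, 430 and 463 CPM in the controls. The groups did not overlap. The means were 324 ± 18.3 CPM with GOLPH3 shRNA and 431 ± 31.2 CPM in the controls (SD, n = 3 each), and the log2 fold change was -0.41 (SE 0.073, edgeR adjusted p = 0.00041, 95% interval -0.57 to -0.26). With 5184 counts in the GOLPH3 shRNA libraries and 8664 in the controls, it had the most counts of the 8 genes.

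Jun (ENSMUSG00000052684), the founding member of the family and a target of the JNK kinases, had 114, 103 and 109 CPM with GOLPH3 shRNA, against 137, 133 and 131 CPM in the controls. The lowest control library stood above the highest GOLPH3 shRNA library, although the step between the groups was small. The means were 108 ± 5.30 CPM with GOLPH3 shRNA and 134 ± 2.89 CPM in the controls (SD, n = 3 each). On the log2 scale Jun was lower by a fold change of -0.31 (SE 0.077, edgeR adjusted p = 0.0056), with a 95% interval of -0.47 to -0.14. A lower log2 fold change was found for 25.8% of all tested IDs, so the change of Jun was within the usual range of this comparison although its replicates were close together. For Junb that share was 19.6%.

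Jund (ENSMUSG00000071076), the family member usually expressed steadily rather than in a burst, had 139, 128 and 106 CPM in the GOLPH3 shRNA libraries and 128, 118 and 121 CPM in the controls. The GOLPH3 shRNA libraries included both the highest and the lowest of the 6 values. The means were 124 ± 17.1 CPM with GOLPH3 shRNA and 122 ± 5.24 CPM in the controls (SD, n = 3 each). The log2 fold change was 0.024 (SE 0.095, edgeR adjusted p = 0.87). Its 95% interval, -0.18 to 0.22, reaches as far down as 0.885 times the control level and as far up as 1.17 times. It does not include the fitted change of Jun or of Junb. However, the interval of Jun, -0.47 to -0.14, overlaps with that of Jund, whereas that of Junb, -0.57 to -0.26, does not.

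**Figure D2:**
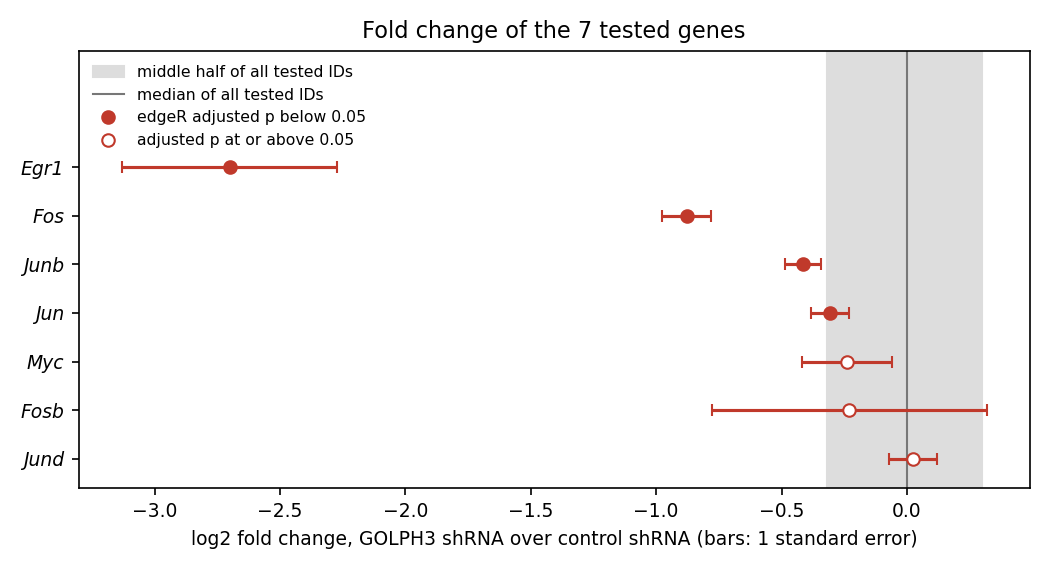
Log2 fold change (x axis, GOLPH3 shRNA over control shRNA) of the 7 tested genes, with bars of 1 SE, where filled points have an edgeR adjusted p below 0.05. The grey band spans the quartiles of all 11400 tested IDs, from -0.32 to 0.30, and Egr1, Fos and Junb lie below it.

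The make-up of the JUN family counts was set between the groups as the share of each gene. Such shares are taken within a library and do not depend on the scaling, but they are shares of counts and not of molecules, since gene length was not used. Jund made up 23.4%, 23.1% and 20.4% of the summed Jun, Junb and Jund counts in GOLPH3 shRNA replicates 1, 2 and 3, and 19.2%, 17.3% and 16.9% in the control libraries. Junb made up 57.5%, 58.3% and 58.7% with GOLPH3 shRNA and 60.2%, 63.1% and 64.7% in the controls. The groups did not overlap for either gene, and the mean differences were 4.48 percentage points for Jund and -4.48 for Junb (exact two-sided permutation p = 0.1 for each, the smallest that 3 against 3 allows). The share of Jun was 19.5% ± 1.24 with GOLPH3 shRNA and 19.5% ± 1.11 in the controls (SD, n = 3 each, exact permutation p = 1). Since the shares of a library add up to a whole, the gain of Jund and the loss of Junb are the same difference. The level of Jund itself was 124 CPM with GOLPH3 shRNA and 122 CPM in the controls. How often such shares are separate in other gene families was not computed. Summed over the family, the level was 557 ± 37.5 CPM with GOLPH3 shRNA and 688 ± 25.3 CPM in the controls.

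**Figure D3:**
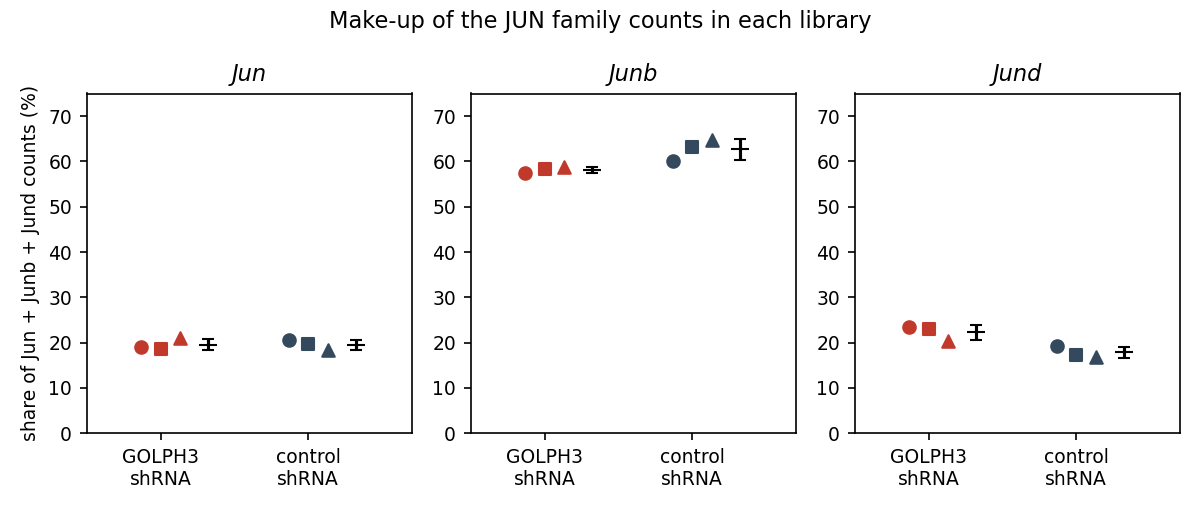
Share of each gene in the summed Jun, Junb and Jund counts of a library (y axis, percent), with symbols for replicate numbers 1 (circle), 2 (square) and 3 (triangle) and the mean ± SD of 3 libraries. Jund takes 20.4% to 23.4% with GOLPH3 shRNA against 16.9% to 19.2% in the controls, Junb takes less with GOLPH3 shRNA, and Jun overlaps.

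The promoters of the 3 JUN genes are set side by side because 2 of the genes fell and the third did not pass the test. The capitals mark the same matches as for FOS.
JUNB promoter, chr19:12791236-12791485 (+ strand): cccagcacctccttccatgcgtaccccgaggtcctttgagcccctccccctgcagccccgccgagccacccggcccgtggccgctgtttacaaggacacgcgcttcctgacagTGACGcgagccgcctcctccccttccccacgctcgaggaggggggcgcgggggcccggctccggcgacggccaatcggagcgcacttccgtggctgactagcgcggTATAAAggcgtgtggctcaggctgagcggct
JUN promoter, chr1:58784048-58784297 (- strand): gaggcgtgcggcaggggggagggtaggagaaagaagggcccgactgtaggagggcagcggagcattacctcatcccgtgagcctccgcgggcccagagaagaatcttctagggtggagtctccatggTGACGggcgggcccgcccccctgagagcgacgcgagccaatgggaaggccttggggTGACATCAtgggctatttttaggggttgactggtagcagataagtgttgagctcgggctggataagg
JUND promoter, chr19:18281623-18281872 (- strand): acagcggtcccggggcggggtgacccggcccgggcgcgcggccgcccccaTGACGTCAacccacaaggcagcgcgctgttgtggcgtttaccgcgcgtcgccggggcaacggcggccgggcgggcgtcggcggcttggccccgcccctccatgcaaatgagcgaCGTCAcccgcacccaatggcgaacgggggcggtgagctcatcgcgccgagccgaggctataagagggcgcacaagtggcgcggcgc
JUN holds TGACATCA, a match to TGACNTCA, 67 to 60 bases upstream, the element through which JUN and its ATF partners are known to act on their own gene. JUND holds a full TGACGTCA 200 to 193 bases upstream, which reads the same on both strands and contains 2 overlapping TGACG matches, and a further TGACG on the other strand 86 to 82 bases upstream. Of all promoter windows, 6.87% held TGACNTCA. JUNB holds TGACG 137 to 133 bases upstream and TATAAA 31 to 26 bases upstream. TGACG was present in all 3 windows, and whether any match bears on the levels was not tested. None of the 3 windows held TGANTCA, which 6.57% of all windows held, or a CArG box.

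Egr1 (ENSMUSG00000038418) showed the largest fold change of the 7 tested genes, from few counts. It had 4, 8 and 4 counts in GOLPH3 shRNA replicates 1, 2 and 3, against 55, 44 and 33 in the control libraries. As levels these were 0.811, 1.43 and 0.723 CPM with GOLPH3 shRNA and 8.56, 6.0 and 5.20 CPM in the controls, with no overlap. The means were 0.989 ± 0.387 CPM with GOLPH3 shRNA and 6.59 ± 1.76 CPM in the controls (SD, n = 3 each), so that 15.0% of the control level was left. On the log2 scale the fold change was -2.70 (SE 0.43, edgeR adjusted p = 0.00016), with a 95% interval of -3.61 to -1.79. Of the 11400 tested IDs, 7 had a lower log2 fold change. Because Egr1 entered the test only through its control libraries, its p and this rank are given as descriptions. The spread of the GOLPH3 shRNA values, a coefficient of variation of 39.1%, was no larger than the 43.3% that counting alone would give at these counts, whereas the controls varied by 26.7% where counting would give 15.1%.

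EGR1 is a zinc finger factor that ERK signalling switches on through SRF and ELK1 bound at serum response elements. Its human promoter is shown because it is the only 1 of the 6 windows with CArG boxes.
EGR1 promoter, chr5:138465229-138465478 (+ strand): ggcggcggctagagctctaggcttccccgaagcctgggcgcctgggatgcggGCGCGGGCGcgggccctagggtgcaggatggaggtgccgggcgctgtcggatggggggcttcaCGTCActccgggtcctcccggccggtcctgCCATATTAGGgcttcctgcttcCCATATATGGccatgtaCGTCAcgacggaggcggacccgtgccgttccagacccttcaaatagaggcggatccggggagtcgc
The CArG boxes, CCATATTAGG and CCATATATGG, lie 105 to 96 and 83 to 74 bases upstream of the start. A CArG box was found in 1.16% of all promoter windows. The window also holds TGACG on the other strand at 135 to 131 and at 66 to 62 bases upstream, and GCGNGGGCG at 198 to 190 bases upstream, a match that 8.41% of all windows had.

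Ier3 (ENSMUSG00000003541), an immediate early gene linked to cell survival under stress, was near the detection limit. It had 3, 4 and 2 counts in the GOLPH3 shRNA libraries and 1, 5 and 7 in the controls, and no library of either group reached the filter's minimum of 1.67 CPM. The groups overlapped. Fitted without the filter, its log2 fold change was -0.22 (SE 1.04, edgeR adjusted p = 0.92). Even a severalfold change in either direction could not have been detected at these counts.

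Myc (ENSMUSG00000022346) had 15.0, 12.7 and 12.3 CPM in GOLPH3 shRNA replicates 1, 2 and 3, against 17.4, 15.7 and 14.0 CPM in the controls. The highest GOLPH3 shRNA value stood above the lowest control value, so the groups overlapped. The means were 13.3 ± 1.46 CPM with GOLPH3 shRNA and 15.7 ± 1.71 CPM in the controls (SD, n = 3 each), from 213 counts in all with GOLPH3 shRNA and 316 in the controls. For Myc the log2 fold change was -0.24 (SE 0.18, edgeR adjusted p = 0.33). Its 95% interval, -0.62 to 0.14, includes the fitted changes of Jun and of Junb but not those of Fos and Egr1. The coefficients of variation, 10.9% with GOLPH3 shRNA and 10.9% in the controls, were close to those of counting alone, 11.9% with GOLPH3 shRNA and 9.74% in the controls, so the number of counts limits what can be said of Myc.

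Ratios between genes within a library were set between the groups to compare the sizes of the changes with each other. Over the 21 pairs of tested genes, the ratio did not overlap between the groups for 12 (exact two-sided permutation p = 0.1 each, the smallest possible, and 0.175 after Benjamini-Hochberg adjustment over the 21 pairs), so no pair could pass a threshold of 0.05. The pairs share genes and are not independent of each other. Every pair with Egr1, which had 4 to 8 counts with GOLPH3 shRNA, was among the 12. The share for pairs drawn from all tested IDs was not computed, and for single IDs it was 46.3%. The log2 ratio of Fos to Jun counts was -0.65, -0.85 and -0.78 with GOLPH3 shRNA and -0.24, -0.086 and -0.24 in the controls, a mean difference of -0.57. That of Fos to Junb was lower by a mean difference of -0.47, and that of Fos to Myc by -0.64. For each of these ratios, the highest GOLPH3 shRNA library was below the lowest control. The log2 ratio of Fos to Egr1 was higher with GOLPH3 shRNA in all 3 libraries, and averaged 6.08 ± 0.66 with GOLPH3 shRNA and 4.19 ± 0.37 in the controls (SD, n = 3 each). For Jun to Junb the ratio overlapped between the groups, with a mean difference of 0.11 (exact permutation p = 0.4). The ratios of Jun and of Junb to Myc also overlapped, with mean differences of -0.070 and -0.18.

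Besides Fos, only Jun, Junb, Jund and Myc had both a symbol here and a mean of at least 10 CPM. Of these, Jun followed Fos most closely across the 6 libraries, with a Pearson r of log2 CPM of 0.99. Junb came next at 0.92 and Myc at 0.77. These values are a description. They span both groups and so mostly carry the difference between them, and 11.8% of the 8079 IDs compared had an r of at least 0.9 with Fos. Jun ranked 21st among these IDs, and Junb 718th. For Jund the most alike of the named genes was Myc, with an r of 0.46 and rank 810 among the IDs, followed by Junb at 0.084 and Jun at 0.018. Among the 8079 IDs compared, 28 had an r of at least 0.9 with Jund.

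**Figure D4:**
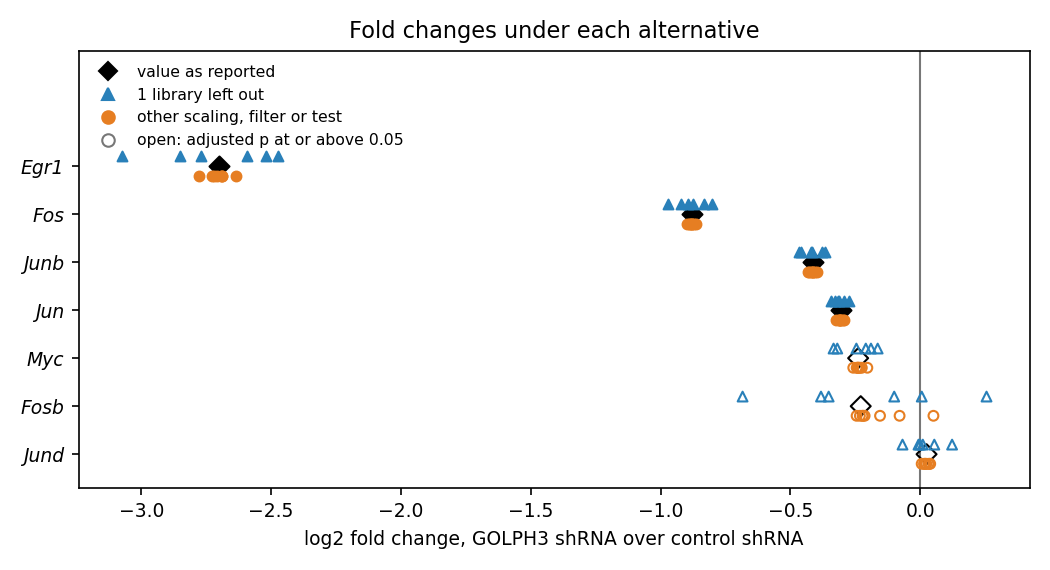
Log2 fold change (x axis, GOLPH3 shRNA over control shRNA) of each tested gene as reported, with 1 library left out, and under other scalings, filters and tests, where open symbols have an adjusted p of at least 0.05. All values of Egr1, Fos, Junb and Jun are filled and below 0, those of Myc are open and below 0, and those of Fosb and Jund are open and lie on both sides of 0.

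The 4 calls held in each of the 14 alternatives run. Across them, the log2 fold change ran from -3.07 to -2.48 for Egr1, from -0.97 to -0.80 for Fos, from -0.47 to -0.37 for Junb and from -0.34 to -0.27 for Jun. Myc was not called in any of them, with values of -0.33 to -0.16.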

How the data were processed

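For the 6 libraries, the authors deposited estimated counts by gene ID in 1 table. Per the labels' protocols, libraries were made with a stranded messenger RNA kit. The genome build is mm10, per the submitters' processing notes, and no aligner, quantifier or annotation release is given in the sources used here. Groups were taken from the sample titles. The 8 genes and all lists were chosen with earlier results of these data known. Estimated counts were rounded. IDs were kept by filterByExpr with a minimum count of 10, which left 11400, and groups were compared with the quasi-likelihood F test of edgeR 4.0.16 in R 4.3.3 with TMM factors. SE is the log2 fold change divided by the root of F. Adjusted p-values are over all tested IDs, with a call below 0.05. Single values were compared by exact two-sided permutation. The alternatives were other scalings and filters, DESeq2 1.42.0, limma-voom (limma 3.58.1), a replicate block, thinned libraries and each library left out. Simulated data with known changes were used to test this fit. No 2 libraries of a group agreed within counting noise (chi-square per degree of freedom from 3.29 to 6.51). The rule for naming genes gave all 8 members. Lists of other AP-1, immediate early and MYC network genes and of cell type markers, set by symbol, were not analysed here, since the name tables used hold human genes.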

Additional observations from a re-analysis of the deposited data

How the results depend on the processing

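Direction and call of Egr1, Fos, Junb, Jun and Myc were the same in the 14 alternatives run for each. For 2 genes that were not called, the sign of the log2 fold change turned. Fosb (-0.23) was at 0.051 with limma-voom, and with each library left out in turn it ran from -0.68 to 0.26. Jund (0.024) ran from -0.068 to 0.12 with each library left out. None of these was called (adjusted p from 0.32 to 1.00 for Fosb and from 0.33 to 1.00 for Jund), and the cause was not tested. Over all IDs, 1840 were called higher and 2030 lower. The other scalings, filters and tests gave 1576 to 1952 higher and 1722 to 2222 lower, leaving out each library gave 1425 to 1665 higher and 1644 to 1929 lower, and calls of at least 1.5-fold, necessarily fewer, numbered 749 higher and 1041 lower. A replicate block gave 1842 higher and 2045 lower, and changed no call of the 7 genes. The log2 fold change with the block was -2.69 for Egr1, -0.88 for Fos, -0.41 for Junb, -0.31 for Jun, -0.24 for Myc, -0.080 for Fosb and 0.019 for Jund. Samples with the numbers 1, 2 and 3 deviated from their group means with correlations of 0.032, 0.090 and 0.044 across genes, too weakly to pair them, and not every sample correlated best with its own number (control 1 with GOLPH3 shRNA replicate 3 at 0.037). The lists set by symbol and the hairpin's target were not run in any alternative. Low counts limit what can be said of Fosb, Ier3 and Egr1, which had at most 55 counts in a library. The cause of the low counts was not tested.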
